A study of Homo sapiens with 8 samples.

Results

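The ribosome load of mRNAs in unstressed HEK293T cells was described, as the CDS footprints of a gene in control ribo-seq against its reads in control mRNA-seq. HEK293T is an established human embryonic kidney line that carries the SV40 large T antigen. Of the 19964 genes with a coding transcript, 10644 had a mean of at least 10 CDS footprints and at least 10 mRNA-seq reads in the 2 control replicates, and these are the genes described. The study treated cells for 30 min with vehicle or with 40 µM sodium arsenite, an oxidative stressor, in 2 biological replicates, which gave 8 libraries. The 4 vehicle libraries are used here, and the arsenite libraries only where stated. Both groups share the cell line and the same handling, with cycloheximide added at the wash after harvest and not before it, and each lysate was divided between ribo-seq and mRNA-seq. Footprints came from RNase I digestion and 80S ribosomes, whereas the mRNA-seq libraries were made from poly(A)-selected RNA broken to the size of footprints. The replicates differed in the 3′ adapter and the sequencing runs.

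Ribo-seq counts the stretches of mRNA that a translating ribosome covers, so the number of footprints per mRNA depends on how often ribosomes initiate, how long they take to pass and how long the CDS is. Short upstream open reading frames (uORFs) in the 5′ leader catch scanning ribosomes and lower initiation at the main CDS. Terminal oligopyrimidine (TOP) mRNAs, which code for ribosomal proteins and elongation factors, begin with a cytosine followed by pyrimidines and are controlled through growth signalling. Because a lysate is a bulk sample, fewer ribosomes on every copy of an mRNA and fewer copies with any ribosome cannot be told apart, nor can fewer cells with an mRNA and less of it per cell.

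On the chosen transcripts the control ribo-seq libraries held 1900743 reads in replicate 1 and 7270196 in replicate 2, and the control mRNA-seq libraries held 3993293 and 19435921. The CDS took 99.5% and 99.0% of the footprints. It took 69.0% of the mRNA-seq reads in replicate 1 and 58.5% in replicate 2, and the 3′ UTR took 26.8% and 36.5%. Of the genes left out, 7353 had too few reads in both assays and 1946 had too few footprints only. The latter are 15.5% of the 12590 genes with enough mRNA-seq reads, so the genes described lack part of the low end. Only 21 genes had enough footprints but too few mRNA-seq reads.

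Load is given as a log2 value in which 0 is the bulk of mRNAs after TMM scaling, so a value of 1 means a ratio of footprints to mRNA-seq reads 2-fold above the bulk. The middle 90% of genes lay between −2.00 and 1.38, a 10.4-fold range, around a median of −0.02. At an adjusted p of 0.05 (edgeR's quasi-likelihood F test, adjusted by Benjamini-Hochberg), 1598 genes (15%) had a higher load than the bulk and 2031 (19.1%) a lower load. The 2 replicates correlated at r = 0.73 across these genes, which share library and depth. Among the 3456 genes with at least 100 reads in each control library r was 0.60. Of the 3629 called genes 3614 lay on the same side of 0 in both, but these replicates made the calls, so this is no independent check. With mRNA-seq reads of the CDS in place of the whole transcript, a ratio in which the UTRs play no part, the range narrowed to 7.41-fold (−1.72 to 1.17), and 890 genes (8.39%) were called higher and 1446 (13.6%) lower. Of the 3629 calls, 1589 were also made in the same direction with CDS reads and 11 in the opposite direction. Both ratios are therefore given for the gene groups, and counts of called members are to be read beside these shares of all genes. Values of single genes are by whole-transcript reads unless CDS reads are named, and many were not called by CDS reads. In fits with replicate 1 or replicate 2 left out, here and below, only its control libraries were dropped. The arsenite libraries of both replicates stayed in, with treatment in the model, so these fits are a different test. They called far fewer genes, so counts of called members rest on having both replicates.

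**Figure D1:**
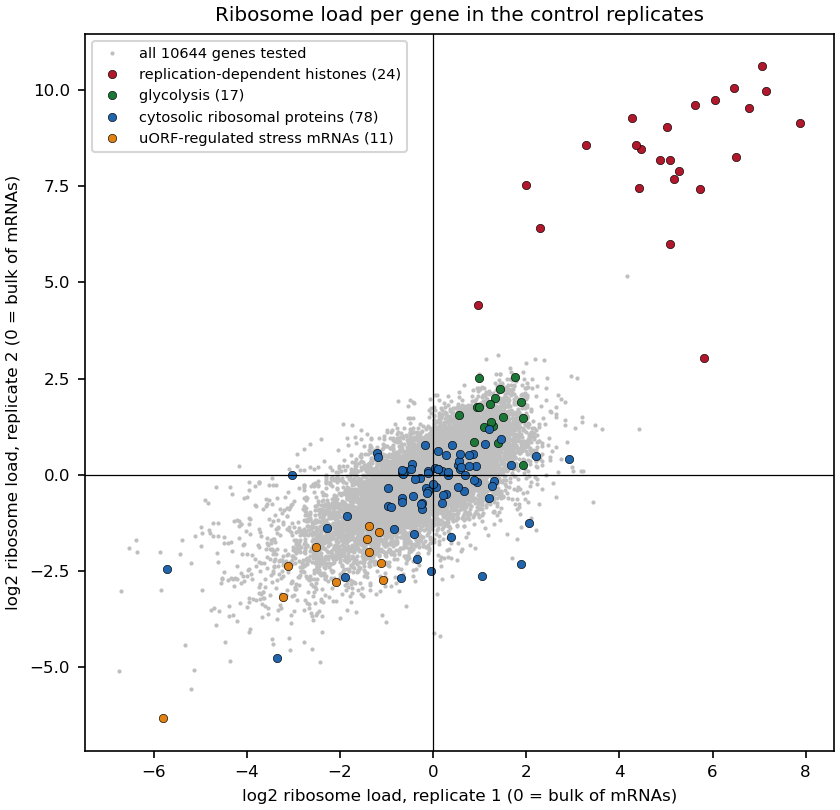
Log2 ribosome load (CDS footprints per mRNA-seq read of the whole transcript, 0 = bulk of mRNAs) of the 10644 genes tested, replicate 1 on the x axis and replicate 2 on the y axis, 1 point per gene. The 24 replication-dependent histones have medians of 5.14 in replicate 1 and 8.36 in replicate 2. HIST2H2BE, at 0.96 in replicate 1, lies among the other genes there. The 17 glycolytic genes sit above 0, and the 11 uORF-regulated mRNAs sit below 0.

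The largest loads belonged to the replication-dependent histones, the core and linker histones of the HIST clusters that package newly made DNA and whose mRNAs end in a stem-loop in place of a poly(A) tail. HIST1H3H, a histone H3 gene, had 853 and 9682 footprints in replicates 1 and 2 but 19 and 21 mRNA-seq reads. Its log2 load was 8.96 ± 0.51 (SE of the fit over 2 replicates, edgeR adjusted p = 1.90e-64), a 498-fold excess over the bulk. In the single replicates it was 7.06 and 10.62, further apart than this SE conveys, since the fit takes its spread from all genes. HIST1H1E, a linker histone, had 1836 and 31148 footprints and 39 and 107 mRNA-seq reads, and a log2 load of 8.65 ± 0.47. In both genes the footprints outnumbered the mRNA-seq reads in each replicate, although the mRNA-seq libraries were deeper. The 10 highest loads by the rule for named genes were all of this group and ranged from 6.70 in HIST1H4H to 8.96. The other 8 were HIST1H2AG, HIST1H3B, HIST1H3A, HIST1H1D, HIST1H1C, HIST1H4B, HIST1H2BD and HIST1H4H.

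Only 24 of the 70 histone genes in the list were tested. Another 20 had enough footprints but too few mRNA-seq reads, and 26 had too few of both. These 20 made up all but 1 of the 21 genes in the series with that pattern, the other being the collagen gene COL3A1. Together the 20 histones had 2146 and 17993 footprints against 69 and 91 mRNA-seq reads. All 24 tested histones were called higher, with a median log2 load of 6.70. The median was 5.14 in replicate 1 and 8.36 in replicate 2, and the group took 1.28% and 2.29% of all CDS footprints against 0.0395% and 0.0124% of mRNA-seq reads. With CDS reads 21 histones were tested and all 21 were called higher (median 6.76). The lowest member by whole-transcript reads, HIST2H2BE, stood at 2.84 (0.96 and 4.41 in the replicates). Since the mRNA-seq RNA was selected by its poly(A) tail, a high ribosome load and a poor recovery of these mRNAs in mRNA-seq cannot be told apart. The histones listed as polyadenylated variants did not share the pattern. Of 10 tested, 0 were called higher and 3 lower by whole-transcript reads (edgeR, with a median of −0.59), and 2 higher and 0 lower by CDS reads (median 0.29). The change of direction is clearest in H3F3B, which codes for histone H3.3 and went from −2.30 to 1.01. Of its mRNA-seq reads, 24 of 793 and 564 of 6308 lay in the CDS. H2AFX, also called higher by CDS reads, went from −0.61 to 1.91, with 38 of 644 and 466 of 2876 reads in the CDS.

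Outside the histones, with values seen before they were chosen, the highest loads with at least 10 reads in each library were those of CCRN4L, ULBP3, TBX20 and MYH9. CCRN4L, a circadian gene of the deadenylase family, had 154 and 273 footprints and 55 and 166 mRNA-seq reads, a log2 load of 2.79 ± 0.41 (edgeR adjusted p = 1.15e-09). MYH9, the heavy chain of non-muscle myosin IIA, had 1506 and 6627 footprints and 1017 and 2846 mRNA-seq reads, a load of 2.60 ± 0.36. ULBP3, a ligand of an immune receptor, stood at 2.74 and TBX20, a T-box transcription factor, at 2.73. These 4 remained called with CDS reads, at 1.90 to 2.41. EPPK1, the repeat-rich epiplakin, reached 4.92 with 26 and 201 footprints but only 4 and 19 mRNA-seq reads.

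Among the 38 gene lists, glycolytic enzymes had the highest median load after the histones by whole-transcript reads, 1.38 (1.28 in replicate 1 and 1.55 in replicate 2), whereas by CDS reads tubulins stood above them (1.29). Of 17 tested, 16 were called higher and 0 lower, against 15% and 19.1% of all genes. With CDS reads 11 were called higher and 0 lower, with a median of 1.05 beside 0.01 over all genes. ALDOA, which splits fructose bisphosphate, had 2613 and 20534 footprints and 2363 and 12311 mRNA-seq reads, and stood highest at 2.15 ± 0.34 (edgeR adjusted p = 2.42e-08). GAPDH had 6184 and 52537 footprints and 7474 and 45852 mRNA-seq reads, a load of 1.67 ± 0.33. ENO2, the neuronal enolase, was lowest at 0.86 and was not called. The group took 1.80% and 2.49% of footprints but 0.961% and 0.905% of mRNA-seq reads. With the controls of replicate 1 or replicate 2 left out, the median of the group lay 1.59 and 1.31 above that of all genes. The enzymes of the TCA cycle and pyruvate dehydrogenase were called higher in 11 of 23 cases and lower in 0 (median 0.80, and 7 higher and 0 lower with CDS reads, median 0.79). Their highest member was SDHA, a subunit of succinate dehydrogenase, at 1.91, and their lowest SDHB, of the same complex, at 0.38.

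Enzymes and complexes that make, fold and remove proteins were also high by whole-transcript reads, where 15% of all genes were called higher and 19.1% lower. All 20 cytosolic aminoacyl-tRNA synthetases, which charge tRNAs, lay above the bulk, and 18 were called higher and 0 lower, with a median of 1.23. VARS, the valyl-tRNA synthetase, had 705 and 2598 footprints and 575 and 2112 mRNA-seq reads, a load of 2.00 ± 0.35, and CARS was lowest at 0.73. The 8 subunits of the CCT chaperonin, which folds actin and tubulin, were all called higher and lay close together, from 0.85 in CCT6A to 1.50 in CCT7, around a median of 1.19 (1.14 and 1.21 in the replicates). Of 34 tested proteasome subunits 31 were called higher and 1 lower, with a median of 1.22. PSMD12 of the regulatory particle was highest at 2.07 and PSMB10 of the immunoproteasome lowest at −1.85, with 4 and 68 footprints for 144 and 489 mRNA-seq reads. With CDS reads these medians were smaller (0.67, 0.69 and 0.70). Called higher were then 5 of 20 synthetases (25%), 0 of 8 CCT subunits and 6 of 34 proteasome subunits (17.6%), against 8.39% of all genes. Called lower were 0, 0 and 1, against 13.6% of all genes. With replicate 1 or replicate 2 left out, 3 and 1 synthetases, 0 and 0 CCT subunits and 1 and 4 proteasome subunits were called higher.

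Heat shock proteins had a median of 1.01, with 15 of 28 called higher (53.6%, against 15% of all genes) and 1 lower. With CDS reads 10 were called higher (35.7%, against 8.39% of all genes) and 0 lower. HSP90AB1, the constitutive cytosolic HSP90, had 13729 and 27810 footprints and 5879 and 26122 mRNA-seq reads, a load of 2.36 ± 0.34. HSPA8, the constitutive HSC70, stood at 1.81 ± 0.32. The lowest member, the cochaperone ST13, stood at −1.16, but at 0.98 (not called) with CDS reads, and 60 of 699 and 739 of 4231 of its mRNA-seq reads lay in the CDS. Genes of folding and translocation in the endoplasmic reticulum were called higher in 16 of 31 cases and lower in 0 (median 0.82), and HSPA5, the chaperone BiP, was highest at 1.91 ± 0.35. With CDS reads 7 were called higher (22.6%) and 1 lower (3.23%). Collagens, laminins and integrins, of which 36 of 76 were tested, had a median of 0.93 with 17 called higher and 1 lower, and 5 higher and 2 lower with CDS reads. COL4A2, a chain of type IV collagen, was highest at 2.13 and LAMA3, a laminin chain, lowest at −1.44.

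**Figure D2:**
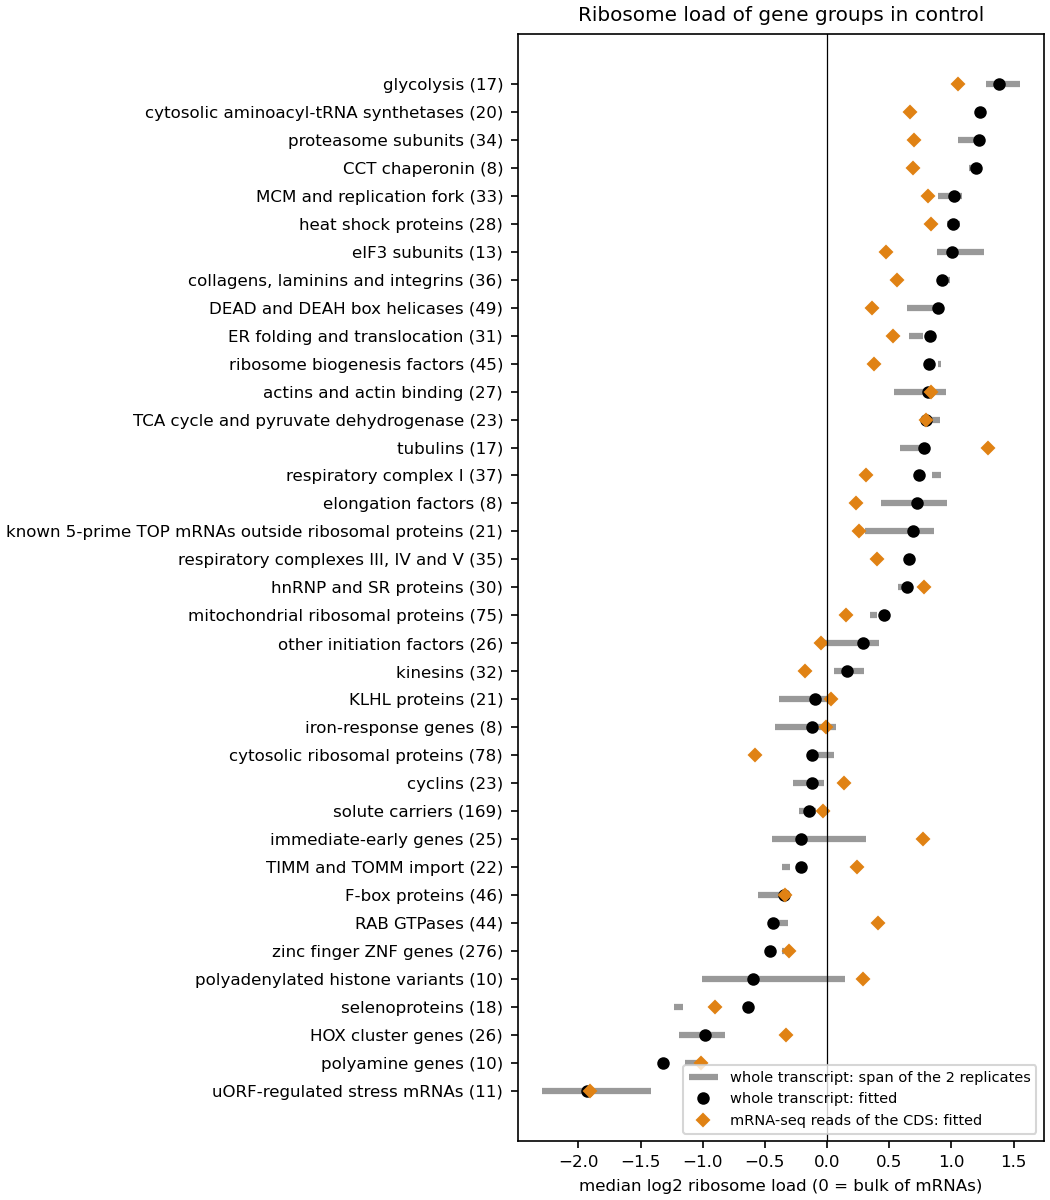
Median log2 ribosome load in control (x axis, 0 = bulk of mRNAs) of 37 gene groups, with the number of genes tested in parentheses. Circles give the fitted value per mRNA-seq read of the whole transcript, grey bars the span between the medians of the 2 replicates and diamonds the value per mRNA-seq read of the CDS. Glycolysis was highest by whole-transcript reads, and the uORF-regulated mRNAs lowest by both ratios. The histones, at 6.70, are not drawn.

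The cytosolic ribosomal proteins, the most abundant group, did not follow the other translation genes. Of 78 tested, 6 were called higher (7.69%, against 15% of all genes) and 14 lower (17.9%, against 19.1%), with a median of −0.12. With CDS reads 0 were called higher and 16 lower by edgeR's test, with a median of −0.58. The 79 genes took 6.97% and 7.30% of CDS footprints and 8.79% and 10.1% of mRNA-seq reads, a ratio of 0.792 in replicate 1 and 0.721 in replicate 2. Against mRNA-seq reads of the CDS these ratios were 0.638 and 0.517. RPL19 was highest at 1.66 ± 0.37, although its values in the replicates, 2.91 and 0.42, were far apart. RPL13A was lowest at −4.09 ± 0.41, with 43 and 66 footprints for 1348 and 6321 mRNA-seq reads, and RPL41 stood at −4.03 ± 0.40 with 97 and 2777 footprints for 15591 and 52656 reads, again far apart in the replicates (−5.71 and −2.44). Only 84 and 313 of the RPL13A reads and 218 and 8612 of the RPL41 reads lay in the CDS, and by CDS reads neither was called, at −0.77 (edgeR adjusted p = 0.164) and −0.54 (0.223). Called lower by both ratios were 9 members, named after their values were seen, namely RPS2 (−1.83 and −2.61), RPL36A (−1.80 and −1.95), RPL17 (−1.70 and −2.21), RPL29, RPS20, RPS27, RPS12, RPL12 and RPS21 (−0.88 and −1.36). Footprints of RPL36A (5 and 287) and RPL29 (95 and 4793) differed far more between replicates than all CDS footprints did (1891357 and 7197534). The authors discarded reads that mapped to several genes, and ribosomal protein genes have many pseudogenes, so levels in this group are uncertain where copies share sequence.

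Most ribosomal protein mRNAs carried the TOP signature in the sequence. RefSeq start sites (GRCh38.p14, one start per gene) were matched for 8906 of the 10644 genes. A cytosine followed by at least 4 more pyrimidines began directly at the start in 67.2% of 64 matched ribosomal protein genes, against 5.68% of all 8906. The start sites of a few members are shown so that the tract can be seen beside genes without it, with 10 bases before the start and 20 from it on, and the tract in capitals.
RPLP0: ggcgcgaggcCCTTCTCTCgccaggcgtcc
RPL13A: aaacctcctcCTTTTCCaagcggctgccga
EEF1A1: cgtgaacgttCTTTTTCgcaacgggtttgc
EEF2: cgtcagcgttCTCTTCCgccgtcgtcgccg
TPT1: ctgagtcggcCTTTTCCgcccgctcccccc
HSP90AB1: caggtactccactctcagtctgcaaaagtg
FTL: acgtcccctcgcagttcggcggtcccgcgg
These windows are chr12:120201092-120201121 on the minus strand (RPLP0), chr19:49487598-49487627 on the plus strand (RPL13A), chr6:73521013-73521042 on the minus strand (EEF1A1), chr19:3985444-3985473 on the minus strand (EEF2), chr13:45341164-45341193 on the minus strand (TPT1), chr6:44246184-44246213 on the plus strand (HSP90AB1) and chr19:48965299-48965328 on the plus strand (FTL). Outside the ribosomal proteins, the 463 genes with a tract had a median of 0.05 and the 8379 without it a median of −0.01.

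The 21 genes of a list of known TOP mRNAs outside the ribosomal proteins had a median of 0.69. Of these, 8 were called higher (38.1%, against 15% of all genes) and 1 lower (4.76%, against 19.1%). By CDS reads the median was 0.26, with 3 called higher (14.3%, against 8.39%) and 1 lower (4.76%, against 13.6%). A tract was found in 10 of the 15 with a matched start, and the median by whole-transcript reads was 0.67 in these and 0.69 in the other 5. EEF2, which moves the ribosome along, had 8889 and 37642 footprints and 9743 and 41827 mRNA-seq reads, a load of 1.56 ± 0.32 (edgeR adjusted p = 2.47e-05). EEF1A1, which brings aminoacyl-tRNA to the ribosome, had the lower load of 0.75 ± 0.31 (adjusted p = 0.0432) with 31158 and 87822 footprints for 51013 and 202102 reads. Neither was called with CDS reads, at 0.94 and 0.16. TPT1, a growth-related protein, had 646 and 1822 footprints for 2426 and 12218 reads and was not called, at −0.62. VIM, the intermediate filament protein vimentin, was the highest of the list at 2.19.

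The translation factors are described by role, with no test between roles. Shares of all genes called were 15% higher and 19.1% lower by whole-transcript reads, and 8.39% and 13.6% by CDS reads. Elongation factors had a median of 0.72, with 3 of 8 called higher and 1 lower, the latter EEF1E1 (−1.10, but 0.31 with CDS reads), a scaffold protein of the synthetase complex. By CDS reads 0 of 8 were called in either direction, where edgeR called 8.39% of all genes higher. The 13 subunits of eIF3, the scaffold of the initiation complex, had a median of 1.00 with 8 called higher and 0 lower, from 0.09 in EIF3L to 1.73 in EIF3K, but 1 called higher and 0 lower by CDS reads. Other initiation factors were mixed, with 7 of 26 called higher and 4 lower (median 0.29), and 2 higher and 3 lower by CDS reads. EIF2B3, a subunit of the exchange factor of eIF2, was highest at 1.48. EIF4EBP2, a repressor of the cap-binding protein eIF4E, was lowest at −3.07 with 56 and 245 footprints for 1525 and 6828 reads. By CDS reads it was at −0.85 and not called. PABPC1, the poly(A)-binding protein, was at 0.37 and not called.

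Ribosome biogenesis factors were called higher in 22 of 45 cases (48.9%, against 15% of all genes) and lower in 0 (median 0.82). By CDS reads 6 were called higher (13.3%, against 8.39% of all genes) and 0 lower. RRP12, a factor of subunit export, was highest at 1.89 and NHP2, of the pseudouridylation particles, lowest at −0.40. Mitochondrial ribosomal proteins were called higher in 18 of 75 cases and lower in 3 (median 0.46), but in 2 and 1 by CDS reads, and in 3 and 8 when scaled by library totals alone. MRPL2 stood highest at 1.55 and MRPS25 lowest at −1.84, and neither was called with CDS reads (0.81 and −0.69). Subunits of respiratory complex I were called higher in 15 of 37 cases and lower in 1 (median 0.74, and 2 and 0 by CDS reads), from −1.64 in NDUFC2 to 1.65 in NDUFA9. By CDS reads NDUFA9 was still called (0.95) and NDUFC2 was not (−0.47). Subunits of complexes III, IV and V were called higher in 15 of 35 cases and lower in 2 (median 0.66, and 5 and 1 by CDS reads). ATP5G2, a copy of the ATP synthase c subunit, was highest there at 2.39, and COX7A2 lowest at −1.05.

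The lists of actins, tubulins and replication fork genes were high by both ratios. Among all genes, whole-transcript reads gave 15% called higher and 19.1% lower, and CDS reads gave 8.39% and 13.6%. Actins and actin-binding proteins had a median of 0.81 with 13 of 27 called higher and 0 lower, and 12 and 0 by CDS reads (median 0.83). ACTB, cytoplasmic β-actin, had 1197 and 13174 footprints for 1859 and 9601 mRNA-seq reads and stood at 1.62 ± 0.35, and ARPC5, of the Arp2/3 complex, was lowest at −0.81. Tubulins, in a list that also held genes of the γ-tubulin complex, had a median of 0.78 with 7 of 17 called higher and 0 lower, and a median of 1.29 with 8 and 1 by CDS reads. Their range ran from −0.76 in TUBGCP6 of the γ-tubulin complex to 2.20 in TUBB3, and tubulin paralogs share much of their sequence, so single members are uncertain. Replication fork genes had a median of 1.02 with 19 of 33 called higher and 0 lower, and 11 and 1 by CDS reads, with MCM2 of the replicative helicase highest at 1.93 and the primase subunit PRIM2 lowest at −0.74.

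Low loads were found among regulators. The list of uORF-regulated stress mRNAs was lowest, with a median of −1.93 (−1.41 and −2.30 in the replicates), and all 11 members tested of 14 were called lower. The other 3, SLC35A4, DDIT3 and HOXB2, had too few CDS footprints. Most of the list was named in the study for its profile or response to arsenite in these libraries, and DDIT3 comes from earlier work. The control values entered that choice, so the list is not independent evidence of a direction. With CDS reads 9 of 11 were called lower (median −1.90), and with replicate 1 or replicate 2 left out 8 and 4 were. ATF4, the transcription factor of the integrated stress response, had 543 and 1511 CDS footprints for 3603 and 25848 mRNA-seq reads, a load of −1.71 ± 0.35 (edgeR adjusted p = 2.24e-05). PPP1R15B, the constitutive regulatory subunit of the eIF2α phosphatase, had 101 and 358 for 802 and 3164, a load of −1.36 ± 0.36. The lowest was C19orf48 at −6.23 ± 0.49, with 4 and 18 footprints in the CDS but 32 and 462 in the 5′ leader. SLC35A4, a nucleotide sugar transporter, had 0 and 4 CDS footprints, 50 and 347 leader footprints and 595 and 3014 mRNA-seq reads, and so lay below the minimum. AZIN1, which inhibits antizyme, was the highest of the list at −1.33, with 125 and 392 footprints in the CDS and 109 and 242 in the leader.

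Genes with many leader footprints had low loads in general. To keep the counts apart, genes were sorted by replicate 1, among those with at least 50 footprints in leader and CDS together, and their load was read in replicate 2. The 3936 genes without a leader footprint had a median load of 0.34, the 1052 with a share under 2% had 0.31, the 306 with 2% to 10% had −0.24, and the 77 with 10% or more had −0.91. With mRNA-seq reads of the CDS the 4 medians were 0.21, 0.29, −0.07 and −0.57. A gene with few CDS footprints has a higher leader share by construction, since CDS footprints enter both measures, so this is a description only.

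Genes of polyamine metabolism, many of which are controlled at translation, were called lower in 6 of 10 cases and higher in 0 (median −1.32), and in 6 and 0 by CDS reads (median −1.01). Over all genes 19.1% were called lower by whole-transcript reads and 13.6% by CDS reads. OAZ1, the antizyme that is made by a polyamine-induced frameshift and degrades ornithine decarboxylase, was lowest with 196 and 1778 footprints for 3102 and 16405 mRNA-seq reads, a load of −1.88 ± 0.36 (edgeR adjusted p = 3.54e-06). AMD1, S-adenosylmethionine decarboxylase, stood at −1.48 ± 0.36 with 353 and 555 footprints for 2033 and 7995 reads. ODC1, ornithine decarboxylase, was at −0.67 and not called, but was called at −1.11 with CDS reads (adjusted p = 0.0193). PAOX, the oxidase of acetylated polyamines, was highest at 0.77. With either replicate left out 1 member was called lower.

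The ferritin mRNAs, which carry an iron-responsive element in the leader that represses them when iron is low, were low. FTL, the light chain, had 31 and 221 footprints for 1706 and 7824 mRNA-seq reads, a load of −3.72 ± 0.40 (edgeR adjusted p = 1.94e-18), and FTH1, the heavy chain, had 158 and 290 for 1143 and 5084, a load of −1.79 ± 0.37. By CDS reads both were lower still, at −3.91 and −2.12. TFRC, the transferrin receptor, whose iron-responsive elements lie in the 3′ UTR and stabilise the mRNA, had 1442 and 2253 footprints for 1416 and 5045 reads and stood at 1.14 ± 0.35. Over all 8 tested iron-response genes 1 was called higher and 3 lower, by both ratios.

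Selenoproteins, in which a UGA codon is read as selenocysteine, were called lower in 8 of 18 cases and higher in 1 (median −0.63, with medians of −1.16 and −1.23 in the replicates). By CDS reads 8 were called lower and 1 higher (median −0.90). Lower calls were 44.4% by each ratio, against 19.1% and 13.6% of all genes, although not all of these were the same genes. SELK was called lower by whole-transcript reads and not by CDS reads (−1.47 and −0.86), and SELO by CDS reads and not by whole-transcript reads (−1.22 and −0.59). GPX1, the abundant glutathione peroxidase, had 33 and 369 footprints for 952 and 5540 mRNA-seq reads, the lowest load of the group at −2.62 ± 0.38 and −3.04 with CDS reads. The exception called higher was TXNRD2, the mitochondrial thioredoxin reductase, at 1.17, although it was not called with CDS reads (0.53), where EPT1, an ethanolamine phosphotransferase, was the one called higher (1.34, edgeR adjusted p = 0.0109, and −0.58 by whole-transcript reads). The 23 listed genes took 0.0692% and 0.0825% of footprints and 0.190% and 0.236% of mRNA-seq reads. With either replicate left out 3 members were called lower.

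The HOX and ZNF families of transcription factors were low by whole-transcript reads, whereas by CDS reads their share of lower calls was near that of all genes. Of 26 tested HOX genes, the homeobox factors of body patterning, 0 were called higher and 14 lower by edgeR (median −0.98), and 0 and 4 by CDS reads (15.4% lower, against 13.6% of all genes, median −0.33). HOXD10 was lowest at −3.68 with 5 and 16 footprints for 172 and 773 mRNA-seq reads, and HOXC9 highest at 0.53. Another 10 HOX genes had enough mRNA-seq reads but too few footprints. Of 276 tested ZNF genes, mostly zinc finger repressors, 20 were called higher (7.25%) and 70 lower (25.4%), with a median of −0.46, and 11 and 40 by CDS reads (14.5% lower, median −0.31). ZNF621 was lowest at −5.52, with 1 and 28 footprints for 493 and 3368 reads, and ZNF296 highest at 1.99. A further 102 ZNF genes had too few footprints only, 102 of the 378 with enough mRNA-seq reads. F-box proteins are the substrate receptors of SCF ubiquitin ligases. Of 46 tested, 1 was called higher and 14 lower (30.4%, against 19.1% of all genes, median −0.34). By CDS reads 1 was called higher and 11 lower (23.9%, against 13.6% of all genes). FBXW2 was lowest at −2.76 and FBXO3 highest at 1.09.

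For several groups the direction of the median depended on which mRNA-seq reads were used. Over all genes 15% were called higher and 19.1% lower by whole-transcript reads, and 8.39% and 13.6% by CDS reads. RAB GTPases, regulators of vesicle traffic, were called higher in 0 of 44 cases and lower in 11 (25%) by whole-transcript reads in edgeR (median −0.44). By CDS reads 10 were called higher (22.7%) and 3 lower (6.82%), with a median of 0.41. RAB31 went from −2.70 to −0.92, where it was no longer called, and RAB3C was the highest at 1.23. Immediate-early genes had medians of −0.21 and 0.77, with 2 higher and 2 lower of 25 by whole-transcript reads (8% each, below the shares of all genes). By CDS reads 3 were called higher (12.5%) and 1 lower (4.17%). BTG2, an antiproliferative gene, was lowest at −2.18 and the transcription factor EGR1 highest at 1.41. TOMM and TIMM genes of mitochondrial import had medians of −0.21 and 0.24, with 1 of 22 called higher and 3 lower, then 1 and 1. All of these counts lay below the shares of all genes (4.55% and 13.6%, then 4.55% each), so only the medians and single members changed direction. TOMM20, an import receptor, went from −2.87 to 0.43, with 297 of 3838 and 699 of 16528 of its mRNA-seq reads in the CDS. The hnRNP and SR proteins of splicing kept their direction as a group, with 9 of 30 called higher and 3 lower (median 0.64), then 12 and 0 (median 0.78), but HNRNPA1 did not. HNRNPA1, an hnRNP core protein, went from −3.26 to 1.03, with 13 of 1356 and 549 of 9630 of its mRNA-seq reads in the CDS. Reads that mapped to several genes had been discarded, and whether this lowered the CDS counts of such genes was not tested. HNRNPM was highest of the group at 1.99.

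The same was read across genes. The whole-transcript load is the CDS-read load plus the log2 share of mRNA-seq reads in the CDS, up to scaling, so sorting by that share parts the ratios by construction and the values are a description only. Genes were sorted by the share of mRNA-seq reads that lay in the CDS in replicate 1, among those with at least 50 reads, and their load was read in replicate 2. The 542 genes with a share under 25% had a median load of −1.37, the 1805 genes with 25% to 50% had −0.58, the 2912 genes with 50% to 75% had −0.09 and the 3543 genes above that had 0.42. With CDS reads the medians ran the other way and over a smaller range, 0.28, 0.12, −0.04 and −0.12. Abundance went with load in a different manner, although mRNA-seq reads are the denominator of the load. The minimum of 10 footprints also takes out low loads first where mRNA-seq reads are few, so these values too are a description only. The 687 genes with 1000 to under 10000 mRNA-seq reads in replicate 1 had a median of 0.43 in replicate 2 (0.38 with CDS reads), against −0.07 (−0.03) in the 6576 genes with 100 to under 1000 and −0.13 (−0.14) in the 3171 with 10 to under 100. The 11 genes with 10000 reads or more lay lower again, at 0.14 (−0.69 with CDS reads).

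**Figure D3:**
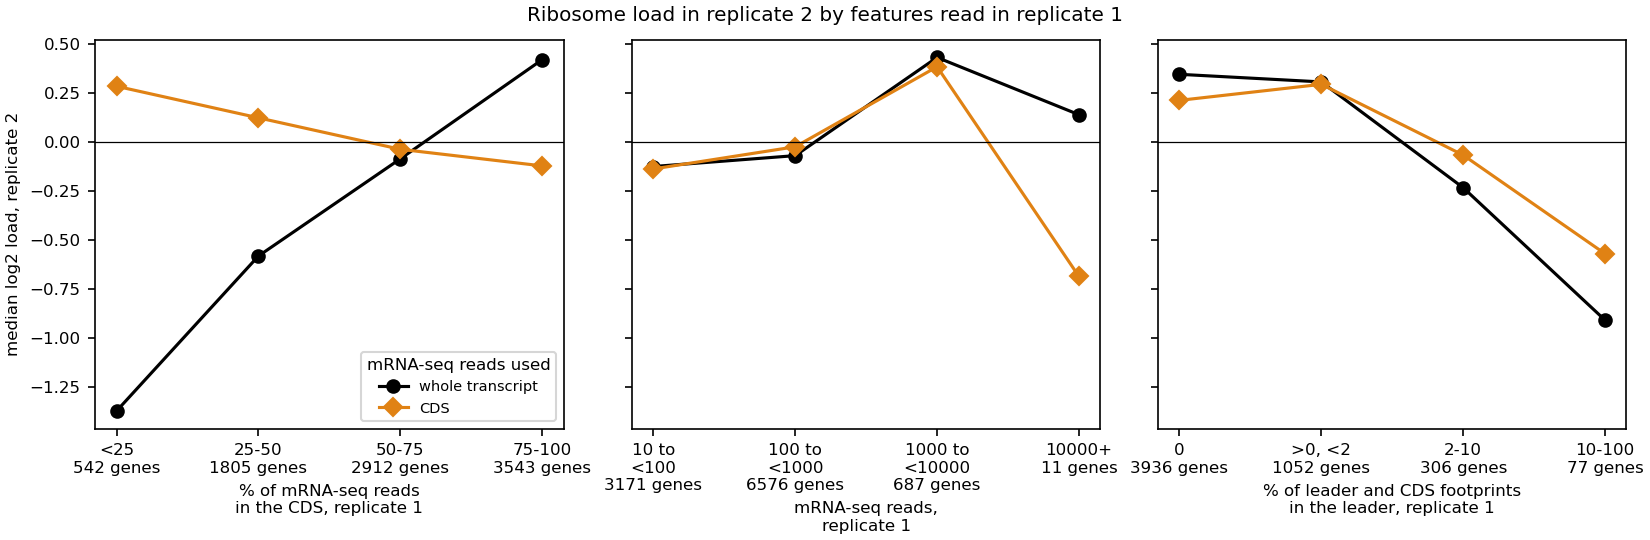
Median log2 load in replicate 2 (y axis, 0 = bulk of mRNAs) of genes sorted by a measure read in replicate 1 (x axes, with the number of genes in each class), namely the percent of mRNA-seq reads in the CDS, the number of mRNA-seq reads and the percent of leader and CDS footprints in the leader. Circles use mRNA-seq reads of the whole transcript and diamonds those of the CDS. Whole-transcript load climbs from −1.37 to 0.42 with the CDS share, and both ratios fall with the leader share.

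The 10 lowest loads by the rule for named genes ranged from −4.26 to −3.68 and fell into 2 kinds. In 6 of them the load was low by both ratios. HMGN1, a nucleosome-binding protein, had 30 and 296 footprints for 2370 and 15392 mRNA-seq reads, a load of −4.26 ± 0.40 (edgeR adjusted p = 6.69e-24), and −2.57 with CDS reads. NSMF, a synaptic signalling factor, had 13 and 41 footprints for 643 and 2461 reads and stood at −4.07 and −4.22. FTL, described above, and RHOQ, a small GTPase, FAM219B and RNF11, a RING finger protein, were likewise called lower by both, the last 3 at −2.91, −2.35 and −2.24 with CDS reads. In the other 4, RPL13A, RPL41, ALG10B and SYNJ2BP, the low value came with few mRNA-seq reads in the CDS and was not called with CDS reads. ALG10B, a glucosyltransferase with a close paralog, had 11 and 22 footprints for 294 and 1842 mRNA-seq reads, but 5 and 24 of these lay in the CDS, so its load turned from −3.97 to 1.17 (adjusted p = 0.144). SYNJ2BP, an outer mitochondrial membrane protein, turned from −3.68 to 1.06 with 15 and 23 reads in the CDS.

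**Figure D4:**
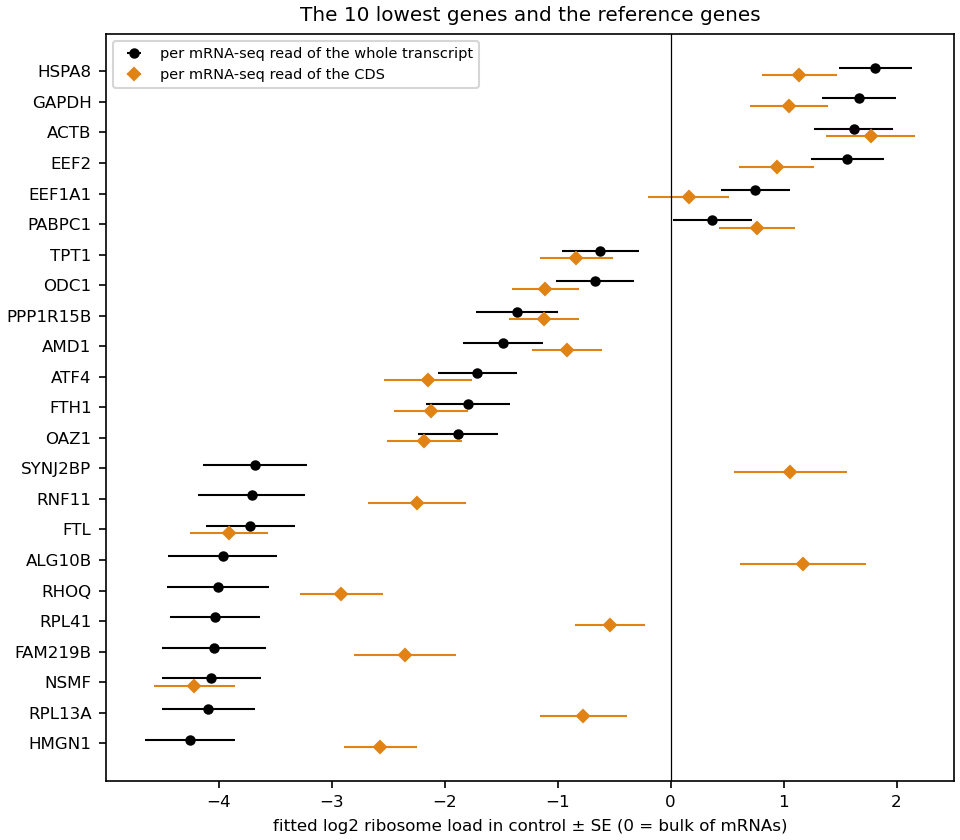
Fitted log2 ribosome load in control with its standard error (x axis, 0 = bulk of mRNAs, n = 2 replicates) of the 10 genes with the lowest load and of the reference genes. The standard errors rest mainly on the spread shared across genes. Circles are per mRNA-seq read of the whole transcript and diamonds per read of the CDS. FTL and NSMF are near −4 by both, whereas ALG10B and SYNJ2BP are near −4 by the first and near 1 by the second.

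The arsenite libraries were used to show where the control state differed from the stressed one. The difference in load between arsenite and control was tested as an interaction over the 8 libraries with a replicate term within each assay, and 106 genes (1.03% of 10273) had a higher and 115 (1.12%) a lower load relative to the bulk in arsenite. With no replicate block 0 genes were called by the same edgeR test (147 had an unadjusted p under 0.05), and with a single replicate term shared by both assays 0 were called (407 unadjusted), so these calls depend on the block. All 11 uORF-regulated mRNAs that had been called lower in control were called higher in arsenite, with a median of 1.77 against −0.01 over all genes, and these samples served in choosing most of them. ATF4 footprints went from 543 and 1511 in control to 912 and 4198 in arsenite, against mRNA-seq reads of 3512 and 26367, a difference of 2.28 ± 0.29 (adjusted p = 0.00990). Among groups with a high load in control, 3 of 17 glycolytic genes were called lower in arsenite and 0 higher (median −0.21). The control counts that make a load high also enter this difference with the opposite sign, so groups picked as high lean lower by construction. Among the others with a high load in control, 0 of 8 CCT subunits, 0 of 34 proteasome subunits and 1 of 20 synthetases were called in either direction by edgeR, where 2.15% of all genes were.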

How the data were processed

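The authors removed adapters with cutadapt, set aside rRNA reads, aligned the rest to RefSeq transcripts with Bowtie 1.0.0 and discarded reads that mapped to several genes. They deposited raw read counts for 47087 transcripts, split by 5′ leader, CDS and 3′ UTR in 35851 coding ones, with ribo-seq reads placed at the A-site and the runs of replicate 2 added together. All files hold counts, with no normalization. Depth ranged from 1900743 to 19435921 reads in the 4 control libraries, and precision is lowest in replicate 1.

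Each gene was represented by its coding transcript with most footprints in the CDS over both controls (7766 genes had several). Load was tested with edgeR 4.0.16 (R 4.3.3, quasi-likelihood, TMM, Benjamini-Hochberg, threshold 0.05) as the coefficient of assay with a replicate block, where the mean count was 10 or more in each assay. This fit has 1 residual degree of freedom and took the spread wholly from that shared across genes. Its standard errors and p values therefore do not measure how far apart the 2 replicates of a gene lie. Each lysate was divided into both libraries, which pairs the replicates, and the correlation of deviations from the group means was 0.342 over 10644 genes. Loads of single replicates carry a prior count of 0.5, and the standard error is the change divided by the square root of F. The fits were run on simulated counts with known loads. These counts held no difference in load between replicates, so they cannot show how the fits behave where replicates differ. Analyses used pandas 2.3.3, numpy 2.4.6 and matplotlib 3.10.9 in Python 3.11.15.

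The members and the 38 gene lists were chosen with earlier results of these data known, and lists are described by counts and medians without a set test. Named genes are the 10 highest and 10 lowest called loads with the same sign in both replicates and at least 10 reads in each control library, the highest and lowest member of each list, and 15 reference genes. The alternatives were other normalizations, DESeq2 1.42.0, other filters, transcripts and read regions, all 8 libraries, a minimum log2 change of 1, no replicate block, and leaving out the control libraries of each replicate. The last kept the arsenite libraries of both replicates, with treatment in the model. The plan for the arsenite test named a replicate block without saying whether it was additive or fitted within each assay. The block within each assay was taken as the main fit, and the additive block was chosen after seeing the data. Protein lengths were not analysed here.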

Additional observations from a re-analysis of the deposited data

Results flagged for a closer look

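In the test of the difference in load between arsenite and control (log2, edgeR interaction over 8 libraries, adjusted p under 0.05), 23 of 192 named genes and list members tested differed, and none was called without the replicate block or with an additive one. Among the genes listed as uORF-regulated, most of which the study chose on these samples, the load was higher in arsenite by 2.28 in ATF4, 2.74 in ATF5, 1.07 in AZIN1, 2.86 in C19orf48, 2.31 in HOXB2, 2.33 in IFRD1, 1.59 in PCNXL4, 2.94 in PPP1R15A, 1.29 in PPP1R15B, 1.77 in PTP4A1, 1.05 in SMCR7L and 1.63 in UCP2. HOXB2 had 0 and 0 leader footprints in control, and its value rests on 4 and 14 CDS footprints. The value for SLC35A4, 5.65, rests on 0 and 4 CDS footprints in control against 2 and 81 in arsenite and depends on the prior count. RPL41 was higher by 1.00. SELK, a selenoprotein, had a value of 1.24, but its footprints went from 26 to 11 in replicate 1, where all CDS footprints went from 1891357 to 1016863, and from 206 to 226 in replicate 2, where they went from 7197534 to 2974515. Relative to these totals SELK fell in replicate 1 and rose in replicate 2. The load was lower in arsenite in ALDOA (−0.82), CCNG1 (−1.49), EEF1A1 (−0.78), EIF4EBP2 (−1.82), ENO1 (−0.62), GAPDH (−0.73), ODC1 (−1.72) and PABPC1 (−1.58).

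Ribo-seq reads also lay on genes without a coding transcript, which enter no comparison. They made up 0.250% of control ribo-seq reads in replicate 1 (4766 reads) and 0.581% in replicate 2 (42458 reads), above the limits of 0.000157% and 4.10e-05% that 3 reads would give, over 6217 genes of which 65 and 307 had at least 10 reads.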

How the results depend on the processing

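Of 38 gene lists, 23 had more members called higher than lower and 14 the reverse, and across the alternatives that kept both replicates and had no minimum change the first number was 19 to 23 and the second 13 to 18. With 1 replicate left out the first was 12 to 13 and with a minimum log2 change of 1 it was 13. The counts of called genes moved more. Against 1598 higher and 2031 lower, library totals alone, which put the median gene at −0.47, gave 535 and 3229, so that 14.2% of calls in place of 44.0% were higher. CDS reads gave 890 higher, a minimum log2 change of 1 gave 126 and 559, DESeq2 gave 1333 lower, and leaving out each replicate gave 97 to 125 higher and 398 to 461 lower. In fits without the pairing of replicates, that is with no replicate block, 766 were higher and 1228 lower. The difference between arsenite and control gave 221 calls, 80 with CDS reads, 0 with no replicate block (edgeR, 147 at an unadjusted p under 0.05) and 0 with an additive block (407). Library totals turned the balance of calls in mitochondrial ribosomal proteins, other initiation factors and kinesins to lower. The ribosomal protein footprint share over mRNA-seq share moved from 0.756 to 0.577 with CDS reads.

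With CDS reads 240 of the 2031 genes called lower turned positive, 11 of them called higher, and 0 of those called higher turned negative by edgeR. The named genes among the 240 were ALG10B (1.17), BTG2 (0.082), DDX19A (0.40), EEF1E1 (0.31), H3F3B (1.01, the one of these that was called), HNRNPA1 (1.03), ST13 (0.98), SYNJ2BP (1.06) and TOMM20 (0.43). No other alternative run turned a called named gene. Read depth limits genes with few reads most, in replicate 1 above all.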

Other observations

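DEAD and DEAH box helicases remodel RNA. Of 49 tested, 23 were called higher (46.9%, against 15% of all genes) and 1 lower, with a median log2 load of 0.89. With CDS reads 5 were called higher (10.4%, against 8.39% of all genes) and 1 lower (median 0.36). DDX60, an antiviral helicase, was highest at 2.06 and DDX19A, of mRNA export, lowest at −1.01. Cyclins were called higher in 4 of 23 cases and lower in 8 (34.8%, against 19.1% of all genes, median −0.12). With CDS reads 1 was called higher and 6 lower (26.1%, against 13.6% of all genes). CCNY was lowest at −2.66 with 15 and 57 footprints for 294 and 1243 mRNA-seq reads, and CCNB3 highest at 1.45.

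Membrane transporters of the SLC families were called higher in 17 of 169 cases and lower in 32 (median −0.15), and in 17 and 22 with CDS reads. Their lower calls, 18.9%, were near the 19.1% of all genes. SLC7A3, a cationic amino acid transporter, was highest at 2.13 and SLC6A8, the creatine transporter, lowest at −3.54. Kinesins were called higher in 6 of 32 cases and lower in 3 (median 0.16), but in 2 and 3 with CDS reads and in 2 and 7 with library totals, from −2.29 in KIF3B to 1.67 in KIF20A. KLHL proteins were called higher in 1 of 21 cases and lower in 4 by both ratios, which by whole-transcript reads is again near the share of all genes, from −2.70 in KLHL2 to 2.09 in KLHL11.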
